A study of Mus musculus with 192 samples.

Results

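Voxelation cuts a slab of brain into a grid of small cubes and measures RNA in each cube, so that a map of gene expression is built position by position. The study hybridised each voxel on its own array against RNA of whole mouse brain, at 68 grid positions named by a row letter and a column number, in 3 independently harvested datasets. Compared here are voxels C3 and C9, in row C, with voxels E3 and E9, in row E of the same columns. They were chosen by their position, with earlier results of these data known. They make up 11 arrays, of 59, 68 and 65 in the datasets. Row C has 6 arrays, both voxels in every dataset, and row E has 5, because E3 had no array in dataset 1. All RNA, that of the whole brain control included, was total RNA of C57BL/6 males at P56, and the labels name no genotype, transgene or treatment for either group. The voxel was labelled with Cy3 and the whole brain with Cy5 in datasets 1 and 3, and the dyes were swapped in dataset 2. The labels call the voxel RNA pooled without giving the number of animals, and they name no anatomical direction for the rows.

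The striatum is the input station of the basal ganglia. Nearly all of its neurons are inhibitory projection neurons, which read dopamine through cyclic AMP signalling and carry markers such as DARPP-32, the product of Ppp1r1b. The cerebral cortex that covers it is led by excitatory pyramidal neurons with other transcription factors and other synaptic proteins, so a voxel at the edge of the striatum can hold RNA of both tissues. In such bulk samples fewer cells of a type and less RNA per cell cannot be told apart.

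Values are deposited log2 ratios with every gene centred on its median over all arrays, so a level of 0 is the gene's median position, not equality with whole brain. Which channel was the numerator is not stated; striatal genes reached high positive values in one compact block of positions, so a higher value likely means more RNA in the voxel, and all directions rest on that. The 11 arrays had between 0.456% and 4.00% missing or floor values. They correlated with the other datasets' arrays of their own position at between 0.469 and 0.730 over 300 genes. Those genes were picked for differing most between positions over all arrays, these 11 included, which favours such agreement. Each of the 11 arrays had its own position among its best 5 of the 68. For some another position ranked first, as D4 did for C9 of dataset 1.

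The levels behind the name striatal columns are given first. Of 35 striatal projection neuron genes 11 were measured, among them Ppp1r1b, Syndig1l, Rasd2 and Meis2, and the dopamine receptor genes were not among them. Their mean level was 0.98 ± 0.26 (SD, n = 3) at C3, 0.95 ± 0.34 (n = 3) at C9, 0.89 ± 0.34 (n = 2) at E3 and 0.64 ± 0.30 (n = 3) at E9. These are the third, the fifth, the sixth and the thirteenth highest of the 68 positions, and the highest was D9 at 1.21. All 4 voxels were thus among the upper positions for striatal genes, E9 lowest, and the spreads of the 4 overlapped. This describes the name and is no independent check of it. The sign of the scale was read from striatal genes, and voxels and lists were chosen with earlier results known. The cortical excitatory neuron genes, 10 of 34 measured, had their highest mean level at F8 (0.64) and stood at -0.31 ± 0.11 (n = 3) at C3, -0.32 ± 0.18 (n = 3) at C9, 0.22 ± 0.17 (n = 2) at E3 and 0.43 ± 0.11 (n = 3) at E9. Row E thus combined striatal levels close to those of row C with higher levels of cortical genes. The cortical list includes Vxn, the gene with the smallest p in the comparison below. Without Vxn the list means of single arrays overlapped, from -0.35 to 0.10 in row C and from -0.06 to 0.45 in row E. None of 18 genes of the pallidum and basal forebrain was measured.

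The comparison asked which genes differ between the striatal voxels of the 2 rows, with 1 difference of means per dataset and limma across all genes. Of 15383 genes 0 passed an adjusted p of 0.05 (0%). The smallest adjusted p was 0.572 (Vxn), and 751 genes (4.88%) had an unadjusted p under 0.05. By direction these were 483 genes higher in row C (3.14%) and 268 higher in row E (1.74%). With no differences at all, a share of about 0.05 of the genes would fall under this limit, so 751 is no more than chance would give. The row differences of all genes also hardly correlated between datasets, at 0.025, 0.015 and 0.095. Over all genes the median difference was 0.01, and 308 genes (2.00%) differed by at least 1 in either direction. Without dataset 1, 16 genes passed, and 0 did without dataset 2 (621 at an unadjusted p under 0.05) or dataset 3 (724). The p-values rest on the spread between the 3 datasets, which limma moderates towards a spread shared by all genes. Each gene's own spread has 2 degrees of freedom and the shared one 3.38. The genes below are therefore given as measured values, and "lower" and "higher" describe them without a call unless one is named.

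A fit of every position gave some calls. In limma on the arrays of the whole series with a mean per position and the dataset as a block, 8 of 15382 genes passed (0.052%), of which 2 were higher in row C (0.013%) and 6 higher in row E (0.039%). With symbols these were Vxn, Basp1, Igfbp4 and Igfbp5, all higher in row E, and the others were 4 features without a symbol. This fit counts arrays of the same dataset as replicates, although they come from the same harvest, and takes its spread from all positions. Its adjusted p-values therefore do not rest on the datasets as the independent units, and on the differences per dataset no gene passed. The fit of the 11 arrays singly, named below, likewise counts arrays rather than datasets. The 6 row C arrays lay wholly above or below the 5 row E arrays for 107 of 14502 genes measured on all 11 (0.738%), 75 of them higher in row C (0.517%) and 32 lower (0.221%). Vxn, Basp1, Igfbp4, Igfbp5, Vat1l and Unc13c were among these.

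For Basp1, Igfbp4 and Igfbp5, the 250 bases before the start of transcription are shown because the genes share a direction in these voxels. They are RefSeq sequences of GRCm38.p6, 5′ to 3′ on the gene's strand: Basp1 at chr15:25413765-25414014 on the minus strand, Igfbp4 at chr11:99040994-99041243 on the plus strand and Igfbp5 at chr1:72874866-72875115 on the minus strand. Capitals mark exact matches on either strand to any of 3 motifs. These were the TATA box, searched as TATAAA, the GC box, searched as GGGCGG, and the E-box, searched with the letters CAGATG.
Basp1: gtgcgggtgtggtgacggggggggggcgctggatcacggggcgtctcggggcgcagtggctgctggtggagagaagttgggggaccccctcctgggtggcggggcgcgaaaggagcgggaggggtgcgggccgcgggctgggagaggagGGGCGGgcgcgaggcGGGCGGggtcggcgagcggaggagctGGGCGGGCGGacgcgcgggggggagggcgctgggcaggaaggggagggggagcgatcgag
Igfbp4: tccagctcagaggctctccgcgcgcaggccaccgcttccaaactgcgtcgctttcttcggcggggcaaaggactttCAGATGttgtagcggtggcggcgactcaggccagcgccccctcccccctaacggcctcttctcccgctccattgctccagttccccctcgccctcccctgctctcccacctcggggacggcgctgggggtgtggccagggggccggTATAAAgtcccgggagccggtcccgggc
Igfbp5: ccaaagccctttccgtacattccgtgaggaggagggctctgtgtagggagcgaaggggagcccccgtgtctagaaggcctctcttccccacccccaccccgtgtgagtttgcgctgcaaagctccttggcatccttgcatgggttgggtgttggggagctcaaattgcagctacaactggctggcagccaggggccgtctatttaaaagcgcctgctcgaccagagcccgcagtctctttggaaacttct
The Basp1 sequence held 4 GC boxes, 2 of which overlap, and Igfbp4 held 1 TATA box and 1 E-box. Igfbp5 held none of the 3 motifs. Of 32851 promoter sequences of this length 12.4% held the TATA box, 32.7% the GC box and 14.4% the E-box so spelled, and the 3 sequences shared none of these motifs. Vxn, called in the same fit and also higher in row E, had no entry among the promoter sequences and is not covered.

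Vxn encodes vexin, a protein described for its role in the formation of neurons, and it was on the list of cortical excitatory neuron genes. On the 6 row C arrays its level ran from -2.11 through a median of -1.46 to -1.28. On the row E arrays it was 1.12 at E9 in dataset 1, 1.56 at E3 and 1.61 at E9 in dataset 2, and 0.77 at E3 and 1.38 at E9 in dataset 3. The groups did not overlap, and the gap between them, from -1.28 to 0.77, was wider than either group's range. The difference, row C minus row E, was -2.48, -3.34 and -2.88 in the 3 datasets, a mean of -2.90 ± 0.43 (SD, n = 3), or 7.45-fold (limma, adjusted p = 0.572). Adjusted p was 0.0476 without the pairing of rows within datasets, 0.00245 with the 11 arrays fitted singly and 0.00149 in the fit of the whole series. Without dataset 1 it was 5.79e-05, and without dataset 2 or dataset 3 no gene passed. A fit without 1 dataset has 2 differences per gene and rests largely on the spread shared by all genes.

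Basp1, a protein of the inner membrane of growth cones and nerve endings, ran from -1.63 to -0.70 with a median of -0.95 in row C. In row E it was -0.05 at E9 in dataset 1, -0.21 and 0.11 at E3 and E9 in dataset 2, and 0.30 and 0.11 in dataset 3. All row E arrays lay near the gene's median and all row C arrays well under it. The difference was -1.08 ± 0.35 (SD, n = 3), or 2.12-fold (limma, adjusted p = 0.869, and 0.000166 in the fit of the whole series), and both rows of the table for this gene had the same sign, at -0.86 and -1.31.

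Igfbp4 and Igfbp5 encode secreted proteins that bind insulin-like growth factors and set how much of them reaches the receptor. Igfbp4 was between -0.41 and 0.09 in row C, with a median of -0.13, and 0.79, 0.50, 1.14, 1.71 and 1.19 in row E, in the order E9 of dataset 1, E3 and E9 of dataset 2, and E3 and E9 of dataset 3. Igfbp5 was between -1.56 and -0.37 in row C, with a median of -0.72, and 0.39, 0.06, 0.15, 0.87 and 0.58 in row E in the same order. Neither gene's groups overlapped, and they lay at different heights. Igfbp4 was near its median in row C and high in row E, whereas Igfbp5 was low in row C and slightly raised above its median in row E. The differences were -1.16 ± 0.53 (2.24-fold) for Igfbp4 and -1.21 ± 0.53 (2.31-fold) for Igfbp5 (SD, n = 3), with adjusted p-values of 0.869 for both in limma on the 3 differences. In the fit of the whole series they were 0.0406 and 0.0472.

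**Figure D1:**
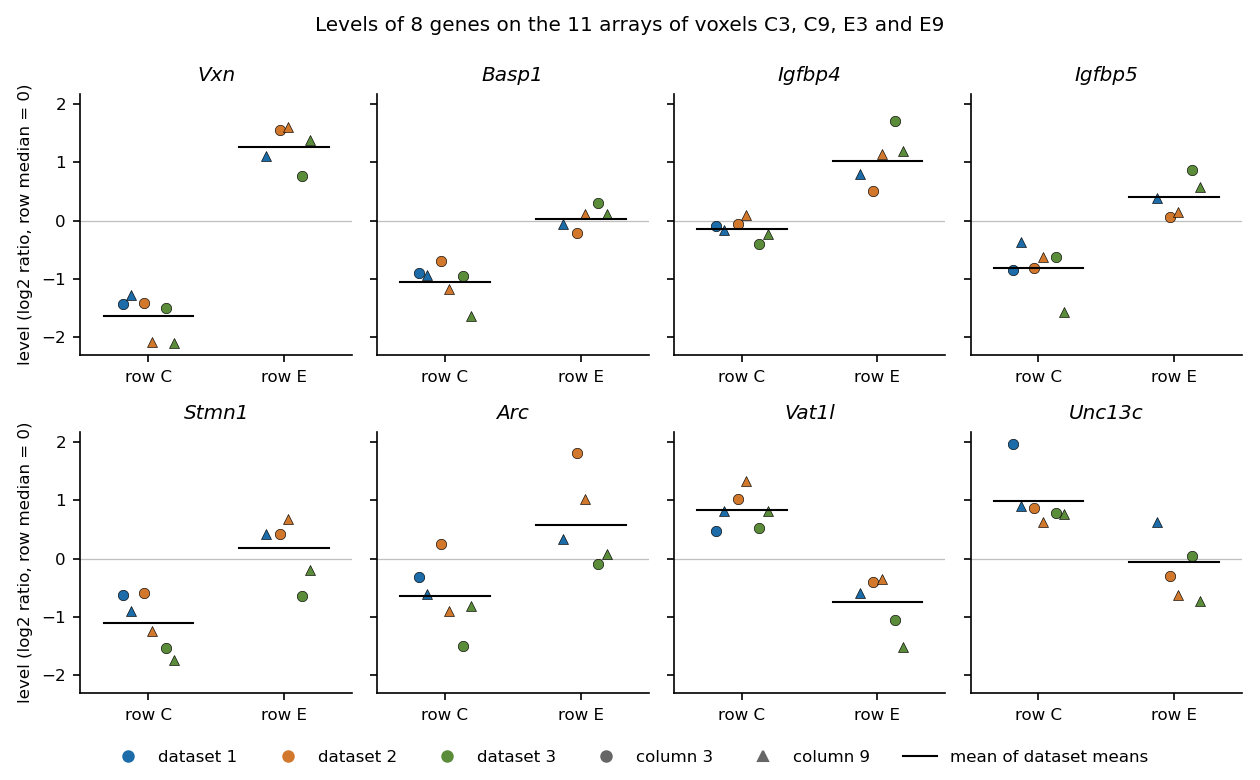
Levels (log2 ratio, 0 is the gene's median over all arrays) of 8 genes in row C and row E; each point is 1 array, coloured by dataset, circles for column 3 and triangles for column 9, and the line is the mean of the dataset means. The rows of Vxn are apart by the widest gap, from -1.28 to 0.77, and the arrays of Stmn1 and Arc overlap between rows.

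Stmn1 and Arc came next to these with an adjusted p of 0.0522 each in the fit of the whole series, short of the threshold. Stmn1 encodes stathmin, which destabilises microtubules; its row C arrays ran from -1.73 to -0.59 with a median of -1.07, and its row E arrays were 0.42, 0.43, 0.68, -0.64 and -0.19 in the order above. The arrays of the rows overlapped, because both rows were lower in dataset 3, yet within each dataset row C was lower, by a mean of -1.29 ± 0.16 (SD, n = 3), or 2.44-fold. Arc, an immediate early gene of active excitatory synapses, ran from -1.50 to 0.26 with a median of -0.71 in row C and was 0.33, 1.81, 1.03, -0.09 and 0.08 in row E. Its difference was -1.23 ± 0.48 (SD, n = 3), or 2.34-fold (limma, adjusted p = 0.869). Egr1, another immediate early gene, differed in the same direction by -0.82 ± 0.40 (SD, n = 3), with overlapping arrays. Of the 13 measured immediate early genes 7 were higher in row C and 6 in row E, with a median of 0.05; Fos stood at -0.04 and Jun at 0.50, so the list did not move as one.

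The other genes among the 15 with the smallest p-values and the same sign in all datasets, on the row E side, were Ighm (-1.36), Topors (-1.76), Kdm4a (-1.13), 1110008P14Rik (-1.19), Sh3bp5l (-1.03), Ywhah (-0.92), Ly6e (-0.96), Mfsd10 (-0.92) and Hmox1 (-1.10), each as row C minus row E. Ighm is the heavy chain of immunoglobulin M, Topors a ubiquitin and SUMO ligase, Kdm4a a histone demethylase, Ywhah the eta form of 14-3-3 and Hmox1 heme oxygenase 1. The Topors difference leans on C3 of dataset 3, which stood at -4.12 when the next lowest row C array was -0.62. Of all genes 4147 (27%) had 1 sign in all 3 datasets.

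Among the 15 genes with the smallest p on the row C side, Vat1l, a relative of the synaptic vesicle protein Vat1, separated the rows most cleanly. It ran from 0.48 to 1.34 with a median of 0.81 in row C and was -0.60, -0.39, -0.35, -1.05 and -1.51 in row E. The row C arrays were all positive and the row E arrays all negative. The difference was 1.24, 1.55 and 1.95 in the 3 datasets, a mean of 1.58 ± 0.36 (SD, n = 3), or 2.99-fold (limma, adjusted p = 0.869). Adjusted p was 0.0522 in the fit of the whole series and 0.0367 with the 11 arrays fitted singly.

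Unc13c encodes Munc13-3, which primes synaptic vesicles for release. Its row C arrays ran from 0.64 to 1.97 with a median of 0.83, and its row E arrays were 0.62, -0.30, -0.62, 0.04 and -0.73. The rows did not overlap by a margin of hundredths only, since E9 of dataset 1 came within reach of the lowest row C array. The difference was 1.05 ± 0.21 (SD, n = 3), or 2.07-fold (limma, adjusted p = 0.869).

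The other 13 on the row C side were Trim10 (1.66), Crygc (1.70), St18 (1.72), Sypl2 (1.57), Fam219b (1.48), 4931406C07Rik (1.36), Zfp740 (1.27), Fam107b (1.20), Otof (1.12), Mx2 (1.11), Fgfr4 (1.06), Ckm (0.98) and Nhlrc2 (0.89), each as row C minus row E. St18 is a zinc finger transcription factor, Otof encodes otoferlin, a calcium sensor of vesicle release, Fgfr4 a receptor for fibroblast growth factors and Ckm the muscle form of creatine kinase. The arrays of these 13 overlapped between rows or were incomplete. Trim10 at E3 stood at 0.15 and -0.35 in datasets 2 and 3, and E9 at -1.80, -1.82 and -3.02 in datasets 1, 2 and 3. Fam219b was -4.07 at E3 in dataset 2 and between -1.07 and -0.16 on the other row E arrays. In column 3 alone Fam219b passed (limma, adjusted p = 0.0241), a fit that rests on that array and 3 others. Without dataset 1 Trim10, Fam219b and Vat1l passed (limma, adjusted p = 0.0269, 0.0240 and 0.0240). That fit has 2 differences per gene and rests largely on the spread shared by all genes. The standard errors of these genes were nearly alike, at 0.306, 0.301 and 0.304. Ccne1 also passed there, at -1.82, although its difference over all datasets was 0.19. No gene passed in a test of column 3 against column 9 (limma, 0 of 14895, 0%; 699 at an unadjusted p under 0.05), which had datasets 2 and 3 only.

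**Figure D2:**
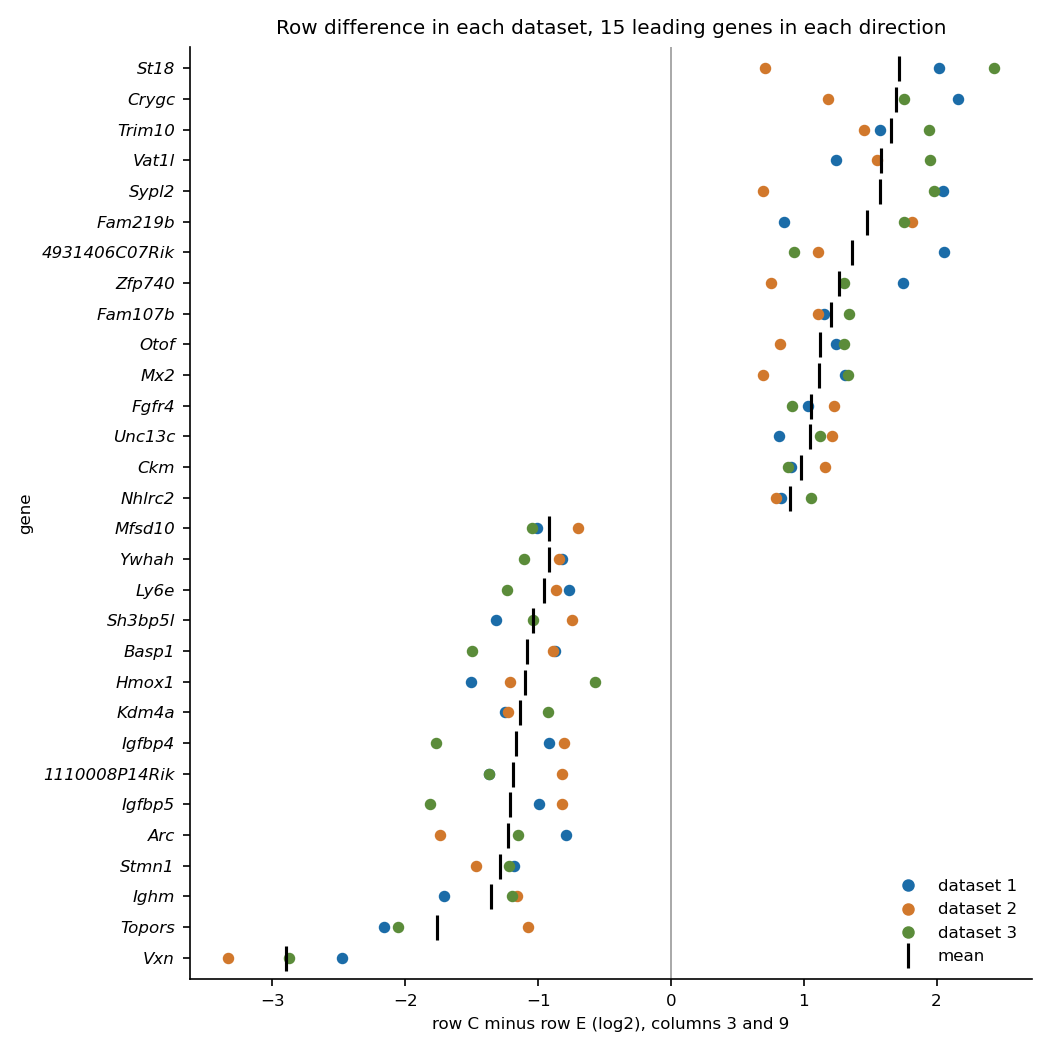
Row C minus row E (log2, columns 3 and 9) in each dataset, as coloured points, and the mean, as a bar, for the 15 genes with the smallest p in each direction among genes of 1 sign in all 3 datasets; that choice fixes the side of every point. Vxn at -2.90 lies apart from the other genes higher in row E, and the means of those higher in row C lie between 0.89 and 1.72.

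Of the striatal projection neuron genes 10 of 11 were higher in row C and 0 passed, with a median difference of 0.24, against 0.01 over all genes. Only 4 had the same sign in every dataset. Ppp1r1b, the DARPP-32 gene, ran from 1.91 to 3.17 with a median of 2.54 in row C and was 1.99, 1.89, 2.86, 2.36 and 1.29 in row E, a difference of 0.43 ± 0.65 (SD, n = 3). It was high in both rows, and the groups overlapped over most of their range. Syndig1l, a synaptic membrane protein gene of striatal neurons, differed by 0.60 ± 0.69 (SD, n = 3), and Rasd2, a striatal small GTPase also called Rhes, by 0.37 ± 0.32 (SD, n = 3). Spock3, a secreted proteoglycan gene, differed by 0.55, 0.65 and 0.58 in the 3 datasets, the tightest of the list at 0.60 ± 0.05 (SD, n = 3; limma, adjusted p = 0.869). Its arrays still overlapped, from 0.15 to 1.61 in row C and from -1.14 to 1.01 in row E. Arpp21 (0.04), Foxp1 (-0.00), Actn2 (0.05), Strn (0.05) and Rap1gap (0.07) were nearly level between rows. Their SDs over the datasets were 0.32, 0.16, 0.16, 0.19 and 0.87.

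The transcription factors of striatal neurons leaned the same way, 7 of 8 measured higher in row C with a median of 0.31 and 0 passing. Their list mean was 0.36, 0.39 and 0.38 in the 3 datasets. Meis2, a homeobox factor, ran from 0.86 to 1.45 with a median of 1.14 in row C and was 0.54, 0.99, 0.45, 0.93 and 0.12 in row E. The difference was 0.54 ± 0.17 (SD, n = 3; limma, adjusted p = 0.869), and the rows overlapped, since both E3 arrays lay within the row C range and the E9 arrays under it. Dlx5, a homeobox factor of inhibitory neurons, differed by 0.96 ± 0.73 (SD, n = 3), most in dataset 1 (1.77), where only E9 represented row E. Meis1 differed by 0.51 ± 0.35 (SD, n = 3), but its 2 rows in the table disagreed, at 0.87 and -0.04. Zfp503 differed by 0.38 ± 0.43 and Bcl11b, which encodes CTIP2, by 0.24 ± 0.55 (SD, n = 3). Of 18 inhibitory interneuron genes 3 were measured, 2 of them higher in row C and 0 passing. Slc32a1, the vesicular transporter for GABA, was 1.11 higher in row C ± 0.69 (SD, n = 3, limma, adjusted p = 0.869). Its arrays overlapped, with C3 of dataset 1 at -0.44 and E3 of dataset 2 at 0.36. Th stood at 0.55 and Sst at -0.09.

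The dopamine and cyclic AMP signalling genes split evenly, 18 of 32 higher in row C and 14 in row E, with a median of 0.04 and 0 passing. In this list Pde1a, a calcium-dependent phosphodiesterase, was between -0.80 and -0.06 in row C and between 0.04 and 0.66 in row E, without overlap. Gng3, a G protein gamma subunit of neurons, was between -1.48 and -0.70 in row C and between -0.40 and 0.21 in row E, also without overlap. Their differences were -0.76 ± 0.18 and -0.79 ± 0.36 (SD, n = 3), short of the threshold in every fit run. The list thus held members on both sides, with its more clearly separated ones higher in row E.

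Of the 10 cortical excitatory neuron genes 9 were higher in row E, 6 of them with that sign in every dataset, at a median of -0.39. In the fit of the whole series 1 of them, Vxn, passed. Dkk3, a secreted glycoprotein gene, differed by -0.86 ± 0.60, Nrgn, a postsynaptic calmodulin-binding protein, by -0.42 ± 0.11, and Olfm1, a secreted neuronal glycoprotein, by -0.93 ± 1.05 (SD, n = 3). Fezf2 (-0.51), Chn1 (-0.36), Tle4 (-0.35), Emx2 (-0.20) and Mef2c (-0.08) were also higher in row E, and Cux1 was level at 0.04. The list mean lay between -0.45 and -0.12 on the row C arrays and between 0.11 and 0.54 on the row E arrays. Vxn carried that separation: without it the mean lay between -0.35 and 0.10 in row C and between -0.06 and 0.45 in row E, with 8 of 9 genes still higher in row E. The higher cortical levels accompany the genes higher in row E described above, and their part in those differences was not tested.

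**Figure D3:**
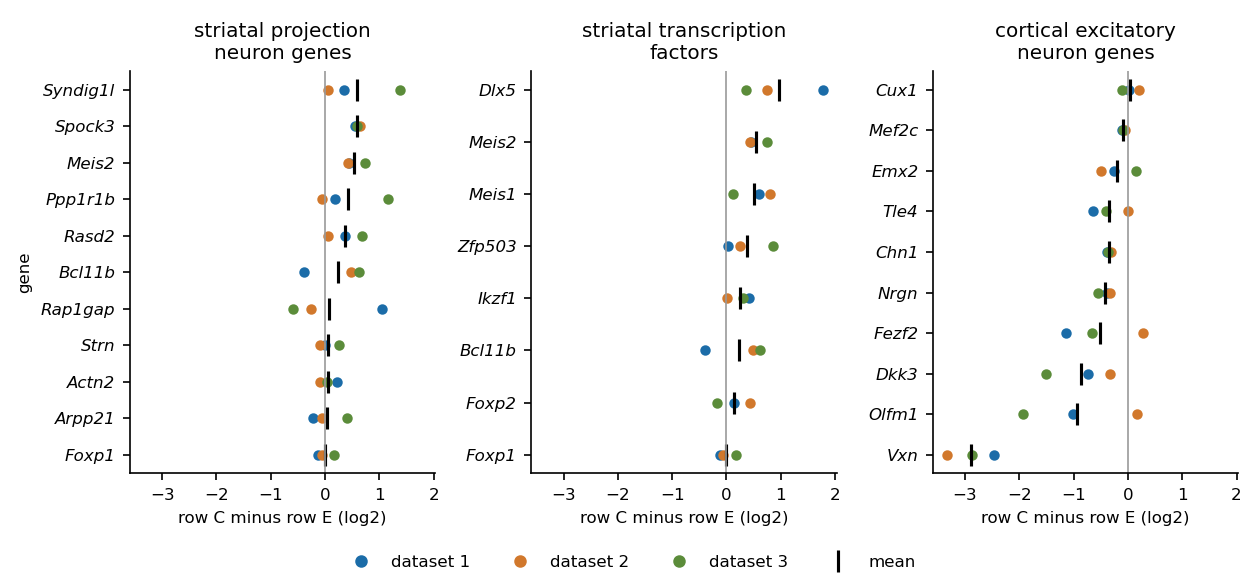
Row C minus row E (log2, columns 3 and 9) in each dataset, as points, and the mean, as a bar, for the measured members of 3 gene lists. Most striatal genes and transcription factors lie a little to the right of 0 with points on both sides for several, and 9 of 10 cortical genes lie to the left, Vxn farthest.

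Genes of growth cones and the neuronal cytoskeleton gave Stmn1 and Basp1, and little else. Of 15 measured, 10 were lower in row C, with a median of -0.10. Gap43, the best known growth cone protein, stood at 0.14, Tubb3 at -0.05 and Nefl at -0.34. Among genes of axon guidance, 12 of 22 higher in row C, Efna1, an ephrin ligand, differed by -0.89 ± 0.30, and Robo1, a Slit receptor, by 0.72 ± 0.58 (SD, n = 3). Among calcium-signalling genes Caln1, a calmodulin-like protein, was higher in row C by 0.87 ± 0.52, whereas Camk2g (-0.68 ± 0.41) and Ncald (-0.58 ± 0.24) were higher in row E (SD, n = 3). The 2 rows of Ncald in the table disagreed, at 0.12 and -1.27. Calb1, which encodes the calcium buffer calbindin, was 0.61 ± 0.23 higher in row C (SD, n = 3) without overlap, but its 5 rows in the table ranged from -0.33 to 1.19 and cannot be read as 1 value. The same holds for Sparc, a matrix glycoprotein, at 0.71 ± 0.08 over rows between -0.14 and 1.45.

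Of 13 astrocyte genes 12 were higher in row C, with a median of 0.22 and 0 passing; Ndrg2 led with 0.50 ± 0.41 and Aldoc stood at 0.31 ± 0.22 (SD, n = 3). The astrocyte list mean was between 0.01 and 0.41 on the row C arrays and between -0.31 and 0.14 on those of row E. Of 5 microglial genes 4 were higher in row C, with a median of 0.30, led by the Fc receptor gene Fcgr3 at 0.59 ± 0.42 (SD, n = 3). Oligodendrocyte genes went the other way in 8 of 11, with a median of -0.22 and Mbp at -0.23, over list means that overlapped between rows. Genes of cytosolic ribosomes (56 of 75 higher in row C, median 0.12) and of oxidative phosphorylation (49 of 63, median 0.11) were only slightly shifted, and 0 of either passed. Whether the glial and ribosomal levels take part in the row C genes was not tested.

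Of 15 hippocampal genes 5 were measured, 4 of them higher in row E, with a median of -0.78 and 0 passing. Bok, a relative of Bcl-2, stood at -0.73, -0.83 and -0.77 in the 3 datasets, a mean of -0.78 ± 0.05 (SD, n = 3; limma, adjusted p = 0.869). Dkk3, given with the cortical genes, was the other with 1 sign in all datasets, while Tdo2 (-0.81 ± 0.78) and Ociad2 (-0.03 ± 0.55) did not keep one (SD, n = 3). Zbtb20, a zinc finger factor, was higher in row C at 0.37 ± 0.44 (SD, n = 3). Of 16 choroid plexus genes 3 were measured. The defining one, Ttr, the transthyretin carrier protein, was 1.78 and 2.20 at E9 in datasets 1 and 2 and -0.05 at E9 in dataset 3, against -0.38 and -0.44 at E3 and between -0.67 and 0.52 in row C. On the 2 arrays with high Ttr, E9 of datasets 1 and 2, Igfbp4 was 0.79 and 1.14 and Igfbp5 0.39 and 0.15. At E3 in dataset 3 Igfbp4 was 1.71 and Igfbp5 0.87. Whether RNA of the choroid plexus takes part in the differences of Igfbp4 and Igfbp5 was not tested. Ttr itself differed between rows by -1.01 ± 0.77 (SD, n = 3), and its 2 rows in the table disagreed, at -0.04 and -1.97. Folr1 differed by -1.05 ± 1.55 and Igf2 by 0.30 ± 0.55 (SD, n = 3), each with both signs among the datasets.

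The neighbouring columns have their own arrays in the same rows and datasets. In columns 4 and 8 limma called 7 of 15543 genes between the rows (0.045%), Ttr and vm012984 among them, and in columns 2 and 10 it called 0 (0%; 633 at an unadjusted p under 0.05). Row C minus row E in columns 4 and 8 had the same sign as in columns 3 and 9 for 25 of 29 leading genes (86.2%), against 59.1% of all genes, and was smaller for 28 of the 29. In columns 2 and 10 it had the same sign for 22 of 30 (73.3%), against 56.8% of all genes, and was smaller for all 30. Vxn was -2.02 ± 1.16 in columns 4 and 8 and -0.93 ± 0.23 in columns 2 and 10 (SD, n = 3). Vat1l was 1.01 ± 0.09 and 1.30 ± 0.05, so its direction held over all 3 pairs of columns. The spread between datasets was small in these 2 pairs and wider in columns 3 and 9. Stmn1 turned its sign, to 0.75 ± 0.50 in columns 4 and 8. The comparison of members chosen for a large difference in columns 3 and 9 favours smaller values elsewhere, and the sizes are therefore a description.

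A test of the row difference in columns 3 and 9 against that in columns 4 and 8 called 1 of 15343 genes (limma, 0.00652%; 544 at an unadjusted p under 0.05). It was vc0339, a feature without a symbol, at E4 and E8 between 3.27 and 5.79 and in columns 3 and 9 of row E between -0.87 and 2.93. Row C minus row E was -4.61 ± 0.89 in columns 4 and 8 and -1.14 ± 1.13 in columns 3 and 9 (SD, n = 3), a difference of 3.47 (adjusted p = 0.0222), and without dataset 1 the count was 13, without dataset 2 or dataset 3 it was 0. Ttr was -3.75 ± 0.47 against -1.01 ± 0.77 (adjusted p = 0.123). Against columns 2 and 10 no gene passed (limma, 0 of 15291, 0%; 607 at an unadjusted p under 0.05). Of the 11 striatal genes 0 were higher in row C in columns 4 and 8, with a median of -0.54, 10 in columns 3 and 9 (0.24) and 9 in columns 2 and 10 (0.69). The 3 genes that follow were chosen after their values were seen. Ppp1r1b was -1.51 ± 0.18 in columns 4 and 8, where row E had more, 0.43 ± 0.65 in columns 3 and 9, and 1.84 ± 0.74 in columns 2 and 10, where row C had more (SD, n = 3). Syndig1l gave -1.04, 0.60 and 1.81 and Rasd2 -0.93, 0.37 and 1.07 in the same order. In the tests of columns 3 and 9 against the other pairs these 3 did not pass (limma, adjusted p = 1.00 against columns 4 and 8 and 0.964 against columns 2 and 10 for each).

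**Figure D4:**
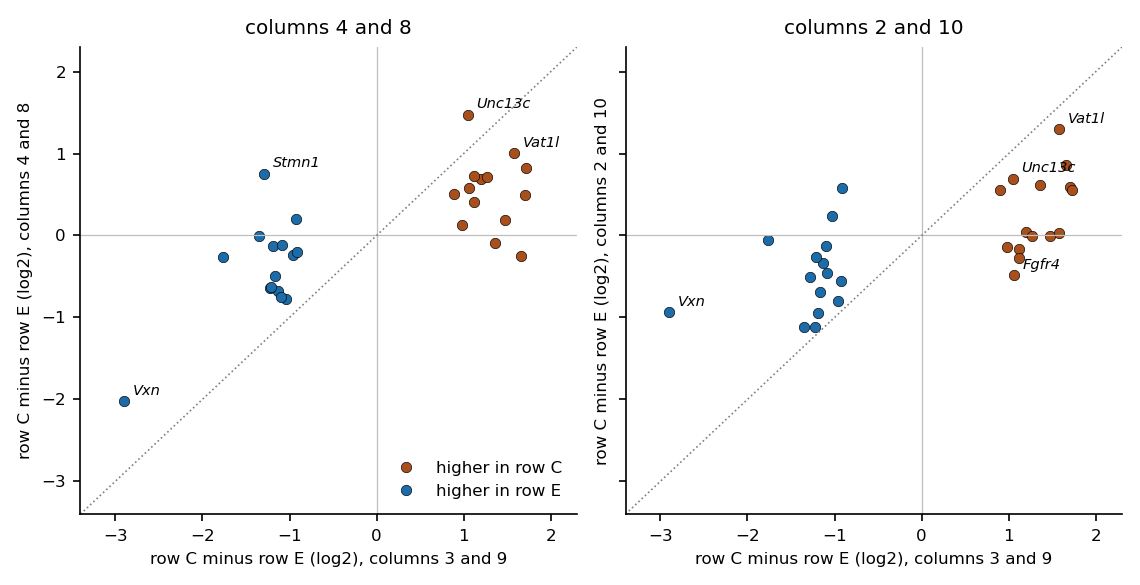
Row C minus row E (log2) of the 30 leading genes in columns 3 and 9 (x axis) against columns 4 and 8 (left) and columns 2 and 10 (right); the dotted line marks equal differences. Of the points 25 of 29 on the left and 22 of 30 on the right lie on the same side of 0 in both pairs of columns, nearly all nearer to 0 on the y axis.

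Rows B and F of columns 3 and 9, the next rows outward, gave a comparison on arrays that the choice of genes did not use. Row B minus row F, in datasets 2 and 3, had the sign of row C minus row E for 27 of 30 leading genes (90%), against 52.4% of all genes. These are means of 2 datasets. In both datasets singly that sign was found for 20 of the 30 (66.7%), 6 of the 15 higher in row C and 14 of the 15 higher in row E, against 26.5% of the 15354 genes measured in both. It was -2.87 ± 0.11 for Vxn, -2.12 ± 0.01 for Arc, -1.57 ± 0.13 for Igfbp4, -1.33 ± 0.07 for Stmn1 and -0.85 ± 0.19 for Basp1 (SD, n = 2). On the other side Unc13c gave 2.02 ± 0.14 and Vat1l 1.37 ± 0.49 (SD, n = 2). Hmox1, Ckm and Sypl2 had the opposite sign, at 0.53, -0.44 and -0.40.

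Along the columns Vxn stood at -1.25 ± 0.15 in row B (n = 2), -1.64 ± 0.24 in row C, -0.81 ± 0.80 in row D, 1.26 ± 0.28 in row E and 1.56 ± 0.12 in row F (SD, n = 3). The widest step between neighbouring rows was from row D to row E. Igfbp4 had the same shape, at -0.28, -0.14 and -0.26 in rows B to D and 1.02 and 1.40 in rows E and F. Igfbp5 did not, peaking in row E at 0.40 ± 0.31 with -0.04 ± 0.54 in row D and -0.06 ± 0.27 in row F (SD, n = 3). Array D3 of dataset 2 correlated at 0.01 with its own position in the other datasets, and without it row D was -0.54 ± 0.50 for Vxn, -0.17 ± 0.14 for Igfbp4 and -0.29 ± 0.20 for Igfbp5 (SD, n = 3). Ppp1r1b was at 1.95 in row B, between 2.06 and 2.49 in rows C to E and at -0.11 ± 0.32 in row F (SD, n = 3). Row E was therefore the last row of high Ppp1r1b and the first of high Vxn and Igfbp4.

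**Figure D5:**
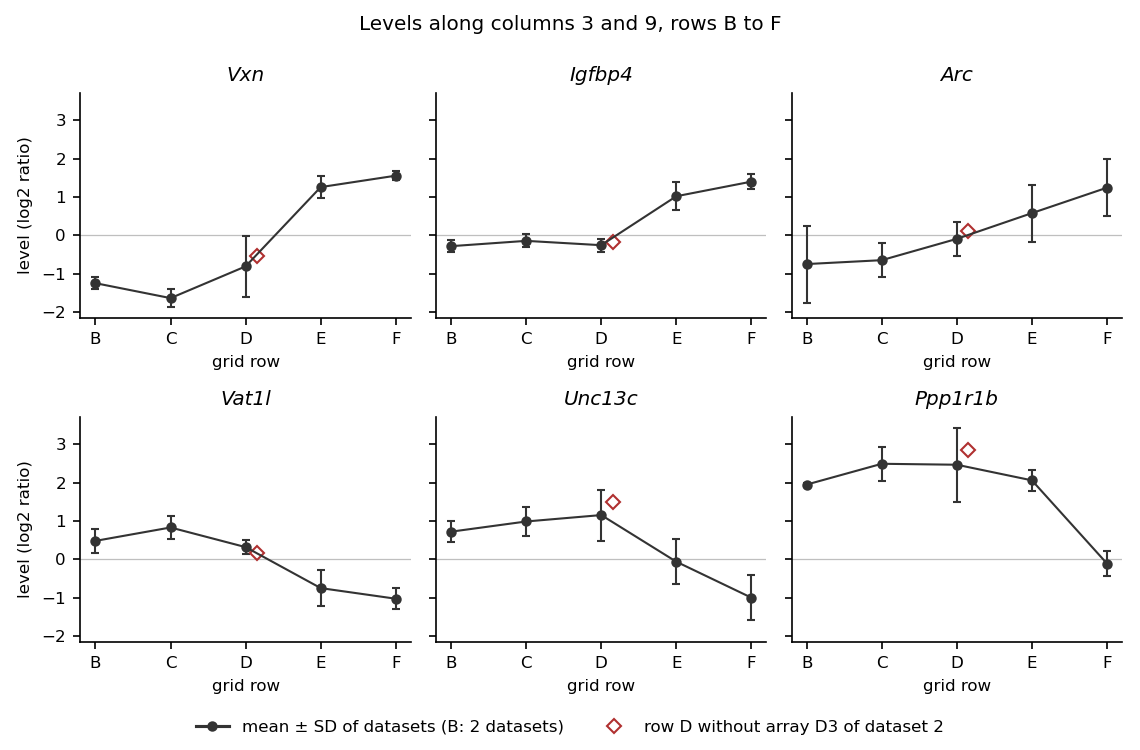
Mean level (log2 ratio) of 6 genes in rows B to F of columns 3 and 9, with the SD over datasets (2 datasets in row B, 3 in the others); the open diamond is row D without array D3 of dataset 2. Vxn and Igfbp4 step up at row E, Vat1l and Unc13c go down there, and Ppp1r1b stays high from row B to row E and is at -0.11 in row F.

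Among features without a symbol, the probe vm015681, called in the fit of the whole series (limma, adjusted p = 0.000166), ran from -1.23 to -0.19 in row C and from 0.13 to 0.55 in row E. The probe vm012984, also called (adjusted p = 0.0472), ran from 0.68 to 1.97 in row C and from -1.78 to 0.20 in row E. Neither overlapped between rows. The arrays of the remaining called features vm014559 and vm018060 overlapped between rows, and these differed by -0.74 ± 0.30 and 1.30 ± 0.77 (SD, n = 3).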

How the data were processed

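Each sample was a two-colour array, in 3 datasets of 59, 68 and 65 arrays. The authors deposited 1 table of log2 ratios with 20847 rows; 99.9% of rows had a median within 0.001 of 0, so the authors had centred each row. The sources used here do not give numerator, scanner or normalization, and the number of arrays limits the precision. Gene symbols came from a dated platform annotation (13168 rows with 1 symbol, 317 with several, 43 with a symbol of another species, 7299 with none) and were updated through RefSeq's GRCm38.p6 table, where 12982 matched.

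The floor value of -6.64 (0.483% of values) was set to missing. Centring used only the 7961 rows without a gap on any array, whose median was subtracted. The shift was at most 0.15 on the 11 arrays. At C9 of dataset 2 it was -0.15 where the whole deposited array had a median of 0.056. At E3 of dataset 2 it was 0.0947 against -0.0018. The median over all rows therefore need not be 0 after centring. A row was kept if each dataset had it on 80% of its arrays or more. Rows of 1 symbol were averaged. This left 15383 genes: 8352 with a symbol, 7031 without and 2903 averages of several rows. limma 3.58.1 in R 4.3.3 (lmFit, eBayes) tested the 3 differences within datasets against 0, two-sided, with Benjamini-Hochberg adjustment, and was tested on simulated data. An SD is over dataset means or dataset differences. Dataset numbers pair the rows, since each dataset was harvested on its own per the labels. Deviations of the rows of a dataset correlated at 0.144, 0.231 and 0.463. The differences between rows hardly correlated from dataset to dataset, at 0.025 (1 and 2), 0.015 (1 and 3) and 0.095 (2 and 3).

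The voxels and gene lists were chosen with earlier results of these data known. Named are the 15 genes with the smallest p in each direction among those with a symbol and 1 sign in all datasets, the measured striatal genes, and up to 4 members of each other list. Alternatives were another block, normalization, floor, filter, row average, column choice and fit, and each dataset left out. Figures were drawn with matplotlib 3.10.9 from tables made with Python 3.11.15, pandas 2.3.3 and NumPy 2.4.6.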

Additional observations from a re-analysis of the deposited data

Results flagged for a closer look

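Among 89 groups of 4 to 6 arrays examined, 7 held 1 array farther from the others than Dixon's limit, which chance alone would give in about 1 in 20 groups. In row C these were Unc13c at C3 of dataset 1 (1.97, next highest 0.90), Topors at C3 of dataset 3 (-4.12, next -0.62), Zfp740 at C9 of dataset 1 (-0.31, next 0.48), 4931406C07Rik at C3 of dataset 2 (-0.38, next 0.63) and Ywhah at C9 of dataset 1 (-0.51, next -1.04). In row E they were Crygc at E9 of dataset 1 (-2.28, next -0.72) and Fam219b at E3 of dataset 2 (-4.07, next -1.07).

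Differences between columns stood out for 3 genes. For vc0339, which has no symbol, row C minus row E was -1.14 in columns 3 and 9 and -4.61 in columns 4 and 8. Row E was thus higher in both pairs, by less in columns 3 and 9, a difference of 3.47 (limma, adjusted p = 0.0222). For Stmn1 every dataset had row C lower in columns 3 and 9 and higher in columns 4 and 8 (0.75), a difference of -2.04 that did not pass (limma, adjusted p = 1.00). Fgfr4 was higher in row C in columns 3 and 9 and lower in columns 2 and 10 (-0.49) in every dataset, a difference of 1.55 that did not pass (limma, adjusted p = 0.964).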

How the results depend on the processing

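The count of genes past the threshold in columns 3 and 9 was 0, and it stayed 0 without centring, with quantile normalization, with floor values kept, over rows measured on all 11 arrays, without the filter, with rows tested singly, with matched columns, in column 9 alone and with values limited to within 3 of 0. It was 1 without the pairing of rows within datasets (Vxn), 2 in column 3 alone, 3 with the 11 arrays fitted singly and 8 with all arrays of the series, and between 0 and 16 with 1 dataset left out, the 16 being without dataset 1. Against columns 4 and 8 it was 1, also without centring, and between 0 and 13 with a dataset left out; against columns 2 and 10, and for column 3 against column 9, it was 0 in every setting run. For the 34 leading genes and features 511 of 531 values kept their direction and side of the threshold, 19 passed it newly, and Hmox1 reversed, to 0.051, in column 3 alone. Removing the pairing changed no other call than that of Vxn. The fits of the 11 arrays singly and of all arrays count arrays of the same dataset as replicates. Of 1700 values of other list members 75 moved by more than 1 SD. Signal over background was not analysed here.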
